A study of Mus musculus with 4 samples.

Results

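The proteasome genes of the mouse were described across single-cell libraries of the brain hemisphere opposite an injection site. Members were all rows of the count matrices whose gene symbol begins with Psma, Psmb, Psmc, Psmd, Psme, Psmf or Psmg, with pseudogene symbols ending in -ps left out, which gave 50 of 32285 genes. All 50 were in the annotation of GENCODE mouse release M21 (GRCm38). They comprised 7 subunits of the alpha ring, 4 structural beta subunits, 3 constitutive catalytic subunits (Psmb5, Psmb6 and Psmb7), 3 immune catalytic subunits (Psmb8, Psmb9 and Psmb10), the 2 interferon-induced activator subunits Psme1 and Psme2, the 2 other activators Psme3 and Psme4, 6 ATPases and 11 non-ATPase subunits of the 19S regulatory particle, 3 chaperones of the 19S base and 4 chaperones of the 20S core. The remaining members were the inhibitor Psmf1, the Psme2 retrocopy Psme2b, the testis subunit Psma8, the thymus subunit Psmb11, and Psmc3ip, which shares the prefix but encodes a meiotic recombination factor and no subunit.

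The 20S proteasome is a barrel of stacked alpha and beta rings in which catalytic beta subunits cut proteins marked with ubiquitin, and the 19S particle recognises, unfolds and feeds those proteins into it. In cells exposed to interferon-gamma, and constitutively in many leukocytes, Psmb8, Psmb9 and Psmb10 are incorporated in place of Psmb5, Psmb6 and Psmb7 to form the immunoproteasome, and Psme1 and Psme2 form the 11S (PA28) cap. The altered cutting favours peptides suited to MHC class I, and in brain the immune subunits are known mainly from microglia and from inflamed tissue.

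The libraries came from 4 groups of C57BL/6 mice with 1 library each: old mice (93 weeks) injected intracranially with 1000 cells of CT2A-GFP-luc, a murine glioma line that carries green fluorescent protein and luciferase; old mice injected with phosphate-buffered saline as sham; young mice (8 weeks) injected with the same tumour cells; and young sham mice. The groups are called old tumour, old sham, young tumour and young sham. The uninjected hemisphere was taken 2 weeks after injection, and all 4 groups share the needle injection and the same enzymatic brain dissociation. The strain entries of the 4 samples differ in their last digit while the study's design names C57BL/6 alone, and the number of mice behind each library is not given in the sources used here. With 1 library per group there is no replicate error, so no test was possible: every interval below is a 95% interval of counting error alone, and age, treatment and library cannot be told apart. A gene is called higher or lower only when its ratio reached 1.5-fold in either direction, without any statement of statistical significance.

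The libraries held 76652484 (old tumour), 62726818 (old sham), 75924528 (young tumour) and 64464413 (young sham) UMIs, the counts of distinct captured molecules. After filtering and doublet removal 9829, 9529, 10461 and 10571 cells were kept in the same order. Cells were assigned to classes by marker genes, with 34995 of 40390 cells (86.6%) placed, and 8.07% of the placed cells lay close to the limit of the assignment. Between 27 and 53 barcodes were shared by each pair of libraries, 0.224 to 0.468% of a library's barcodes. A class of 331 cycling cells led by Hmga2 was found in the young tumour library alone and had a median of 26793 UMIs per cell, and these cells supplied 9845 of that library's 30960 Psmb8 UMIs. For this reason levels are given within cell classes and not over whole libraries. Levels are the UMIs of a gene over all UMIs of the class, scaled to 1000000 (CPM). UMIs from the 3' end are not scaled to gene length and capture can differ between genes, so a share of one subunit over another is compared across libraries and is not a stoichiometry.

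The 5 immune subunits lie at 3 places in the genome. Psmb8 (ENSMUSG00000024338, chr17:34197721-34201454, plus strand) and Psmb9 (ENSMUSG00000096727, chr17:34181987-34187764, minus strand) lie close together in the MHC class II region. Psme1 (ENSMUSG00000022216, chr14:55578123-55581529, plus strand) and Psme2 (ENSMUSG00000079197, chr14:55587441-55591113, minus strand) lie close together on chromosome 14, and Psmb10 (ENSMUSG00000031897, chr8:105935735-105938444, minus strand) stands alone. Among the constitutive catalytic genes Psmb5 lies at chr14:54614119-54618022, Psmb6 at chr11:70525367-70527858 and Psmb7 at chr2:38588036-38644087. Promoter windows of 300 bases from RefSeq (GRCm38.p6, 250 bases before to 50 after the start) are shown for 3 immune genes that were higher in young tumour microglia and for Psmb5, the constitutive partner of Psmb8. They are written 5′ to 3′ on the gene's strand, with motif matches in capitals. The RefSeq starts differ from the gene starts given above, so that the windows of Psmb9, Psmb8 and Psme1 lie inside the spans of those genes.
Psmb9, chr17:34187281-34187580, minus strand: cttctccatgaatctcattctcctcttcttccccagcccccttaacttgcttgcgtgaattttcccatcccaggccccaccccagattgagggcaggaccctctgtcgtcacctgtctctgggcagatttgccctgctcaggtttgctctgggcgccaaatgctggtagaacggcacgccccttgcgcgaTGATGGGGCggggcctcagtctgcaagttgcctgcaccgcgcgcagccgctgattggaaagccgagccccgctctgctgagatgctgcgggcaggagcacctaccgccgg
Psmb8, chr17:34197945-34198244, plus strand: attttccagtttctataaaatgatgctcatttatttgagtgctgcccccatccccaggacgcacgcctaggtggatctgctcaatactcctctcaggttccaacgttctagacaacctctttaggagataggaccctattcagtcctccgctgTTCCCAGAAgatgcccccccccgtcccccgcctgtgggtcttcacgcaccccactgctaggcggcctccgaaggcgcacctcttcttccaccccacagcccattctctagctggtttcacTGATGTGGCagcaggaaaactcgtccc
Psme1, chr14:55578244-55578543, plus strand: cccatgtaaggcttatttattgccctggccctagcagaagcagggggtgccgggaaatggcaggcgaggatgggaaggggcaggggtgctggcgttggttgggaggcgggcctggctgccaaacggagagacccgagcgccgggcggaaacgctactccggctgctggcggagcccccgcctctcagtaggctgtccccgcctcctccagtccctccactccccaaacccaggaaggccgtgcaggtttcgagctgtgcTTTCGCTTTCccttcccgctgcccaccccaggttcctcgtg
Psmb5, chr14:54617946-54618245, minus strand: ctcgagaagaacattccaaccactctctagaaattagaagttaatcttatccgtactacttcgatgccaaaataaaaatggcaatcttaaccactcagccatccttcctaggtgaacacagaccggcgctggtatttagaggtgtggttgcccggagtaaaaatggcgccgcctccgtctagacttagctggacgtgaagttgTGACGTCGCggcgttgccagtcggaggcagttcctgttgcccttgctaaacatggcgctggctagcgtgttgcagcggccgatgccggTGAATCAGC

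In all windows 3 motifs were searched on both strands: the core of the interferon-stimulated response element (GAAA and GAAA, NN apart), TTCNNNGAA, the gamma-activated site, and TGANNNNGC, a core of the antioxidant response element. The capitals in Psme1 are a match to the core of the interferon-stimulated response element on the opposite strand from base 260, those in Psmb8 a TTCNNNGAA match from base 154 and a TGANNNNGC match from base 274, and those in Psmb9 a TGANNNNGC match from base 191. Psmb5 held TGANNNNGC from bases 204 and 292. The core of the interferon-stimulated response element was present in 3.44% of all 32851 windows and in those of 5 of the 42 members with a window (Psmb3, Psmd4, Psmd9, Psme1 and Psmg4), TTCNNNGAA in 8.30% of all windows and in those of 3 members (Psmb8, Psmd2 and Psmg1), and TGANNNNGC in 41.3% of all windows and in those of 24 members. Psmb9 lies head to head with Tap1, a pump subunit that carries peptides into the endoplasmic reticulum: the 2 windows lie on opposite strands and overlap by 275 bases. A match is a description of letters only.

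Microglia-like cells gave the deepest view of the immune subunits, with 2442 (old tumour), 2522 (old sham), 3111 (young tumour) and 3710 (young sham) cells. The class was selected by 11 microglial markers, so their detection in each library and the place of 6 of them among its 10 leading genes follow from the selection. The leading genes that were not used to select the class were Il1a, Slc2a5, P2ry13 and Crybb1. In young mice 4 of the 5 immune subunits were at least 1.5-fold higher in the tumour library than in the sham library, beside 3.65% of all genes tested. None of the 14 constitutive 20S subunits was, which at that share is no result about those 14 genes. With cells classed by clustering, Psmb9 alone of the 5 reached 1.5-fold, at 1.56, beside 1.47 for Psmb8, 1.19 for Psmb10, 1.39 for Psme1 and 1.33 for Psme2. In old mice none of the 5 immune subunits reached 1.5-fold, where 2.75% of all genes tested were higher and 3.19% lower by that much.

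Psmb8, the chymotrypsin-like immune subunit that replaces Psmb5, stood at 352 CPM (95% interval 341 to 363) in old tumour, 273 (264 to 283) in old sham, 529 (516 to 543) in young tumour and 274 (265 to 283) in young sham microglia-like cells. Both sham libraries sat at the same level, and the young tumour library was the highest. Its ratio of tumour over sham was 1.93 (1.86 to 2.01) in young and 1.29 (1.23 to 1.35) in old mice, and the ratio of old tumour over young tumour was 0.66 (0.64 to 0.69).

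Psmb9, which replaces Psmb6, measured 124 CPM (118 to 130) in old tumour, 107 (101 to 113) in old sham, 222 (214 to 231) in young tumour and 105 (99.9 to 111) in young sham cells. As for Psmb8, young tumour was highest, old tumour next, and the 2 sham libraries were close to each other. The tumour over sham ratio was 2.11 (1.98 to 2.25) in young and 1.16 (1.07 to 1.25) in old mice, and old tumour over young tumour was 0.56 (0.52 to 0.59).

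Psmb10, which replaces Psmb7, reached 139 CPM (132 to 145) in old tumour, 114 (108 to 120) in old sham, 189 (181 to 197) in young tumour and 132 (126 to 138) in young sham cells. The young tumour library was highest here too, but the young tumour over sham ratio of 1.43 (1.34 to 1.52) stayed under 1.5-fold. In old mice the ratio was 1.22 (1.13 to 1.31).

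The 11S cap subunits behaved alike between young libraries. Psme1 was at 273 CPM in old tumour, 271 in old sham, 355 in young tumour and 205 in young sham cells, and Psme2 was at 151, 144, 211 and 128 CPM in the same order. Tumour over sham ratios in young mice were 1.73 (1.65 to 1.82) for Psme1 and 1.65 (1.55 to 1.76) for Psme2, and those in old mice were 1.01 and 1.05. The sham libraries differed by age for Psme1, at 1.32 (1.26 to 1.39) for old over young, which is under 1.5-fold.

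The constitutive catalytic subunits differed less between libraries. Psmb5 was at 134 CPM in old tumour, 126 in old sham, 160 in young tumour and 142 in young sham cells, Psmb6 (caspase-like) at 162, 156, 206 and 162, and Psmb7 (trypsin-like) at 84.3, 81.9, 90.9 and 85.6. Tumour over sham ratios were 1.06, 1.04 and 1.03 in old mice and 1.13, 1.28 and 1.06 in young mice, so that Psmb6 moved furthest. None of the 3 reached 1.5-fold in any comparison.

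**Figure D1:**
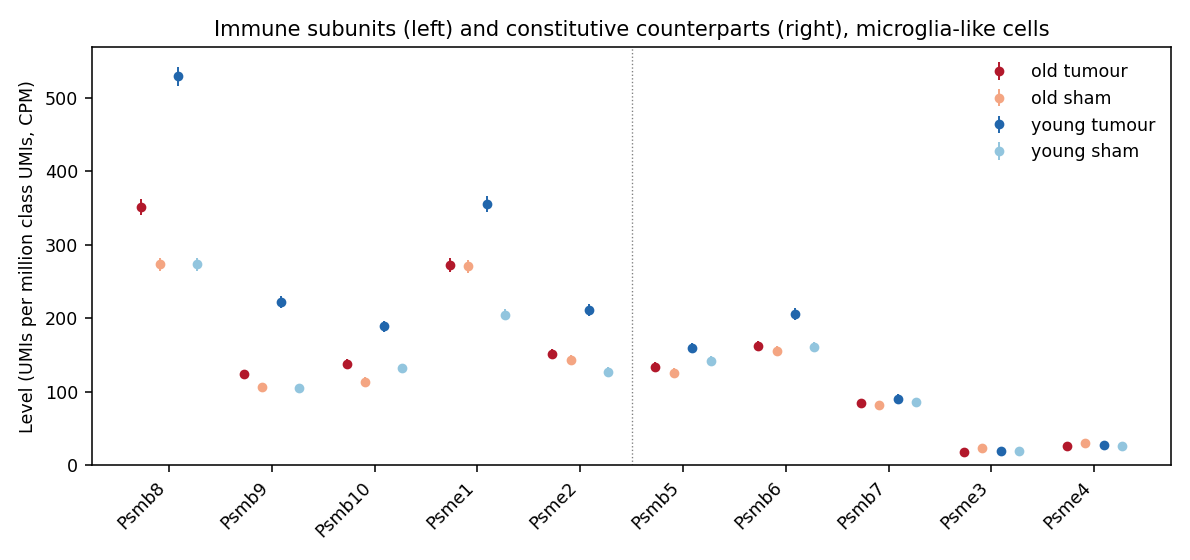
Levels in microglia-like cells (CPM of the class, vertical axis) of the immune and the constitutive catalytic and activator genes in the old tumour, old sham, young tumour and young sham libraries, with 95% counting intervals and 1 library per point. Psmb8 reaches 529 CPM in the young tumour library and 274 CPM in the young sham library, while Psmb5 lies between 126 and 160 CPM in all 4.

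Summed over the 5 immune genes, the level was 1038 CPM in old tumour, 909 in old sham, 1506 in young tumour and 844 in young sham microglia-like cells. The ratio of tumour over sham was 1.14 (1.11 to 1.17) in old and 1.79 (1.74 to 1.83) in young mice, the ratio of old over young tumour 0.69 (0.67 to 0.71) and that of old over young sham 1.08 (1.05 to 1.11). The 14 constitutive 20S genes summed to 2046, 1852, 2420 and 2092 CPM in the same library order, with tumour over sham ratios of 1.10 in old and 1.16 in young mice.

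Within the catalytic genes, the immune share does not depend on the class total. Psmb8, Psmb9 and Psmb10 made up 61.8% (60.9 to 62.6) of the UMIs of the 6 catalytic genes in old tumour, 57.6% (56.7 to 58.5) in old sham, 67.3% (66.6 to 68.0) in young tumour and 56.8% (55.9 to 57.7) in young sham cells. For Psmb8 against Psmb5 the share was 72.5, 68.5, 76.8 and 65.9%, for Psmb9 against Psmb6 it was 43.3, 40.7, 51.8 and 39.4%, and for Psmb10 against Psmb7 it was 62.2, 58.1, 67.5 and 60.7%. In each pair the order was young tumour first, old tumour next and the sham libraries last. Psme1 and Psme2 held 90.4, 88.5, 92.3 and 87.8% of the UMIs of the 4 activator genes Psme1 to Psme4. Psme3, the nuclear activator PA28 gamma, lay at 18.1, 23.3, 20.1 and 19.9 CPM, and Psme4 (PA200) at 26.9, 30.6, 27.1 and 26.4 CPM, neither reaching 1.5-fold anywhere.

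Across all members, 47 of 50 had at least 10 CPM in 1 or more libraries of this class, among 8374 genes that did. Psma8 had 61, 109, 51 and 61 UMIs and Psmc3ip between 3.6 and 4.7 CPM, both under that floor, and Psmb11 had no UMI. In young mice 5 members were higher with tumour (Psmb8, Psmb9, Psme1, Psme2 and Psmg4), where 3.65% of all genes tested were, and none was lower, where 1.98% were. In old mice 1 member was higher with tumour (Psmg3; background 2.75%) and none lower (3.19%). Between the tumour libraries no member was higher in old mice (2.14%) and 2 were lower, Psmb8 and Psmb9 (3.03%), whose ratios with clusters were 0.87 and 0.74, so that neither call was kept. Between the sham libraries no member was higher in old mice (5.04%) and Psmg3 was lower (5.02%). The median log2 ratio of tumour over sham over the 47 members was 0.10 in old and 0.14 in young mice, beside 0.04 and −0.06 over all genes tested, and in young mice it was 0.79 for the 5 immune genes and 0.21 for the 14 constitutive 20S genes.

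**Figure D2:**
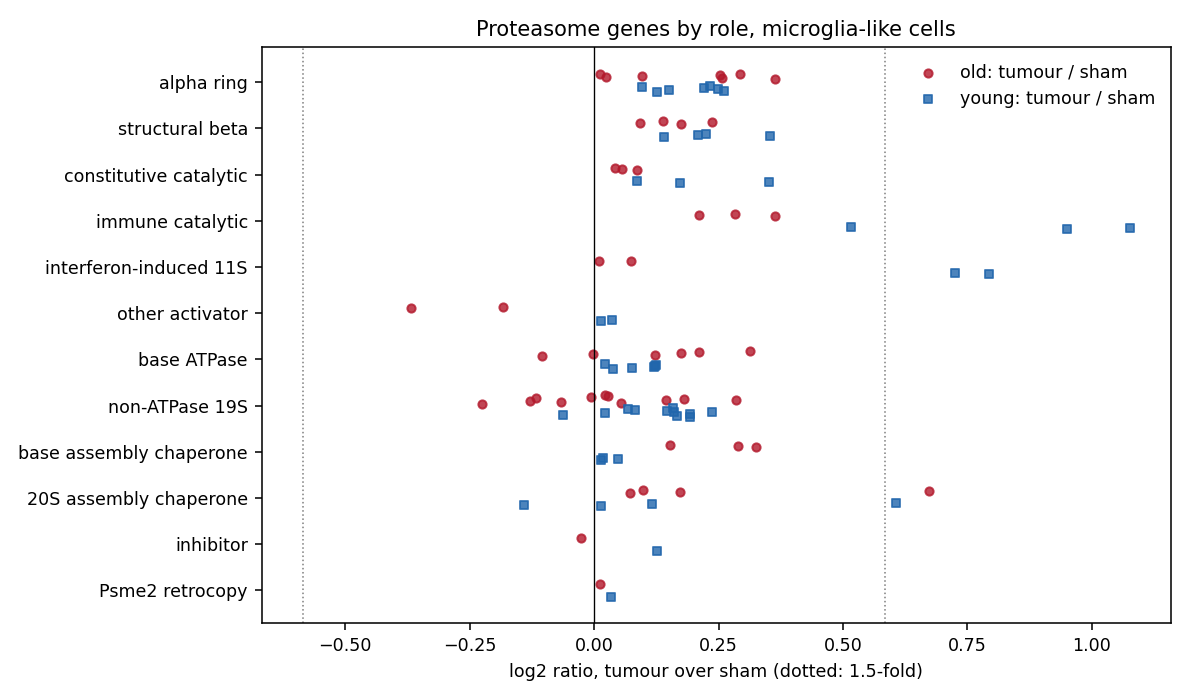
Log2 ratio of tumour over sham in microglia-like cells for each member with at least 10 CPM, by role in the complex, in old and in young mice (1 point per gene). In young mice Psmb8, Psmb9, Psme1, Psme2 and Psmg4 lie above the 1.5-fold line, in old mice Psmg3 does, and the base ATPases and non-ATPase 19S genes lie close to 0.

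Among the structural parts, the 7 alpha ring genes summed to 1013, 906, 1190 and 1039 CPM, the 6 ATPases of the 19S base, which unfold the substrate, to 532, 485, 581 and 547 CPM, and the 11 non-ATPase 19S genes to 890, 874, 951 and 864 CPM in old tumour, old sham, young tumour and young sham cells. None of these 24 genes was called in any comparison, where between 1.98 and 5.04% of all genes tested were called per comparison and direction. Psma1, an alpha ring subunit, had the largest old tumour over sham ratio among them at 1.29, with 139, 108, 165 and 151 CPM in the 4 libraries. Psmd1, the scaffold of the base, was at the other end at 0.86, with 55.9 and 65.3 CPM in old tumour and old sham cells, and Psmd4, a ubiquitin receptor, followed at 0.91. Psmb2, a structural beta subunit, had 130, 122, 167 and 131 CPM and a young tumour over sham ratio of 1.28, and Psma2 had a ratio of 1.20.

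The called members outside the immune genes were Psmg3 and Psmg4, which help assemble the 20S core. Psmg3 was the only member called higher with tumour in old mice, beside 2.75% of all genes tested. It was also the only member called lower in old sham than in young sham, beside 5.02%. Psmg4 was called higher with tumour in young mice, beside 3.65%. These calls are no result about the chaperones as a group, and the values are a description. Psmg3 was at 36.9 CPM in old tumour, 23.1 in old sham, 38.4 in young tumour and 35.5 in young sham cells, so the old sham library was the low one, with ratios of 1.59 (1.37 to 1.85) for tumour over sham in old mice and 0.65 (0.56 to 0.76) for old over young sham. Psmg4 was at 40.3, 37.7, 45.4 and 29.8 CPM, with the young sham library low and a young tumour over sham ratio of 1.52 (1.34 to 1.74). Psmg2 went the other way in young mice, at 27.4 CPM with tumour and 30.2 in sham, a ratio of 0.91. Psmd5, a chaperone of the base, had a ratio of 1.25 in old mice. The inhibitor Psmf1 (14.4, 14.7, 15.7 and 14.4 CPM) and the retrocopy Psme2b (20.4, 20.2, 18.5 and 18.1 CPM) were nearly level across libraries. Psme2b is a near copy of Psme2, and how reads that fit both were counted is not given in the sources used here.

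The young tumour difference depended on which cells were counted and on how deep cells were weighted. The summed immune ratio in young mice, 0.84 on the log2 scale, was 0.48 when cells were classed by clustering, which gave 1173 CPM in the young tumour library against 841 CPM in the young sham library. It was 0.50 with every cell thinned to 1000 UMIs, 0.51 as a mean of each cell's CPM and 0.26 in the cells without a UMI of any other leukocyte marker. All 4 values lie under 1.5-fold (0.585 on this scale), so the call does not hold under them, while the direction does. The gate without other leukocyte UMIs left out most of the class. It kept 421 (old tumour), 377 (old sham), 665 (young tumour) and 680 (young sham) cells. With clusters, B cell markers summed to 241, 257, 272 and 274 CPM in microglia-like cells of the same libraries. What kinds of cells this gate left out was not tested. Psmb9 kept a ratio above 1.5-fold under clustering (0.65 on the log2 scale) and thinning (0.82).

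Several other transcripts also differed between libraries in the microglia-like class, and not all in the order of the immune subunits. The 10 interferon-induced genes of the list (Ifit1, Isg15, Rsad2 and others) summed to 182 CPM in old tumour, 160 in old sham, 321 in young tumour and 67.5 in young sham cells. All 10 were higher in young tumour than in young sham, and all 10 were also higher in old sham than in young sham. The 4 MHC class II genes summed to 1046, 358, 10524 and 512 CPM, with all 4 higher with tumour at both ages. Of the 8 border macrophage markers, 7 were detected in each library and Lyve1 was at 0 in all 4. Their sum was 29.5, 20.2, 324 and 23.8 CPM, of which Ms4a7 alone was 302 CPM in young tumour, whereas Mrc1 was at 13.4 CPM in both young libraries. Of 8 monocyte markers 6 were higher in young tumour than in young sham (sums 28.9, 18.4, 108 and 29.1 CPM), as were 9 of 10 T cell markers (2.11, 1.56, 10.2 and 1.77 CPM), 5 of 7 dendritic cell markers (2.87, 1.72, 9.73 and 2.80 CPM), 7 of 7 NK cell markers (0.675, 0.469, 7.70 and 0.662 CPM) and 6 of 8 markers of the Hmga2-expressing class (28.1, 32.2, 83.4 and 37.2 CPM). Erythroid markers summed to 10.97, 42.8, 80.6 and 152 CPM, and to 11.5, 43.9, 1681 and 300.0 CPM when cells were classed by clustering. The 11 microglial markers summed to 30882, 28552, 31102 and 36003 CPM. The part of admixed or infiltrating cells in the young tumour value was not tested.

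The immune level was then read in cells with and without those transcripts, a comparison added after the values had been seen. Cells with at least 1 UMI of an interferon-induced gene made up 26.7% of old tumour, 25.1% of old sham, 23.3% of young tumour and 11.9% of young sham microglia-like cells. Their immune sum was 1230, 1049, 2411 and 936 CPM. In cells without such a UMI it was 951, 853, 1000 and 829 CPM, so that the log2 ratio of young tumour over young sham was 0.27 there. In the cells with 3 or more such UMIs (171, 167, 273 and 61 cells) it was 1592, 1320, 3038 and 1139 CPM. Those 273 young tumour cells had a median of 8542 UMIs, against 3047 in young tumour cells without such a UMI and 4196 in the 61 young sham cells. Their constitutive 20S sum was also higher, at 3192 CPM against 2179 CPM in young tumour cells without such a UMI. The part of depth in this split was not tested.

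The split by MHC class II genes gave a similar picture. Cells with at least 1 class II UMI made up 25.8, 22.6, 44.7 and 12.4% of the class in old tumour, old sham, young tumour and young sham, with immune sums of 1201, 933, 1940 and 895 CPM. Cells without one had 960, 900, 933 and 835 CPM, a log2 ratio of tumour over sham of 0.094 in old and 0.16 in young mice. The ratio of old over young tumour, −0.54 on the log2 scale in the whole class, was 0.042 in these cells. In cells with 3 or more class II UMIs, 597 in young tumour and 79 in young sham, the sums were 2568 and 991 CPM, beside 1359 CPM in 205 old tumour and 958 CPM in 110 old sham cells. The difference between the young libraries was therefore smaller in the cells without these transcripts than in those with them, which was not tested. Those 597 cells were also deeper, with a median of 5733 UMIs against 2967 in young tumour cells without a class II UMI, and their constitutive 20S sum was 2918 CPM against 2140 CPM. A deeper cell is more likely to show any given UMI, and the part of depth in the split was not tested.

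**Figure D3:**
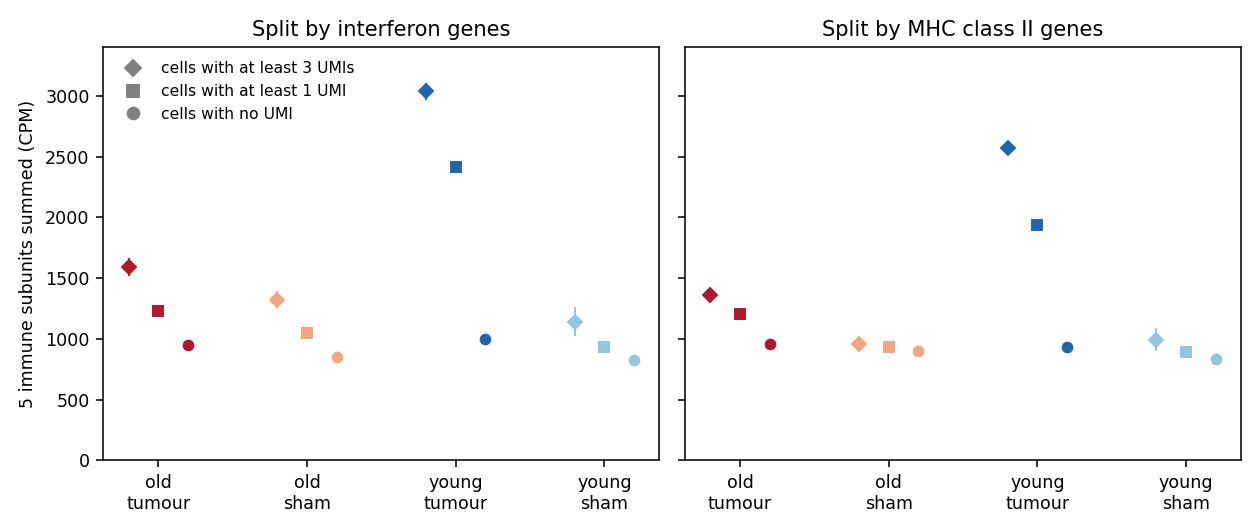
Summed level of the 5 immune subunits (CPM) in microglia-like cells with no UMI, at least 1 UMI or at least 3 UMIs of interferon-induced genes or of MHC class II genes, for the 4 libraries with 95% counting intervals. Cells without such UMIs lie between 829 and 1000 CPM in all 4 libraries. Young tumour cells with at least 1 lie at 2411 and 1940 CPM, and those with at least 3 at 3038 and 2568 CPM.

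Detection of Psmb8 in single cells was read with depth made equal, since unthinned shares did not follow the level. With cells thinned to 1000 UMIs, 29.9% of old tumour, 22.8% of old sham, 31.7% of young tumour and 24.4% of young sham microglia-like cells had a Psmb8 UMI, beside 74.3, 69.0, 64.3 and 58.8% unthinned. Thinning left out 76, 75, 160 and 213 shallower cells. In oligodendrocyte-like cells, a class with an immune share under 5%, the thinned shares were 0.359, 0.555, 1.51 and 0.440%. Unthinned they were 1.61, 1.55, 5.52 and 1.86%, at median depths of 5809, 5073, 5609.5 and 6358 UMIs against 4640.5, 4928.5, 3209 and 3598 in the microglia-like cells.

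Genes that work with the proteasome were described beside the immune subunits. Of 19 partners (assembly, shuttle, deubiquitinating and ubiquitin genes), none was higher with tumour at either age in microglia-like cells. Over all genes tested 2.75% were higher in old and 3.65% in young mice, so that count is no result about the partners. Zfand5, a proteasome-binding activator, was lower with tumour at both ages, at 207, 468, 163 and 274 CPM in the 4 libraries. Its ratios were 0.44 in old and 0.60 in young mice, where 3.19 and 1.98% of all genes tested were lower. Between sham libraries Zfand5 (ratio 1.71) and Nfe2l2 (1.56), a factor of the antioxidant response, were higher in old mice, beside 5.04% of all genes tested. These calls are likewise no result about the partners as a group. Pomp, the maturation factor of the 20S core, lay at 381, 323, 408 and 353 CPM.

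Genes of MHC class I processing and its control were described beside the immune subunits. Of 12 such genes 11 passed the floor in microglia-like cells. In young tumour against young sham 3 were higher, Tap1 and B2m among them, beside 3.65% of all genes tested, and none was lower, beside 1.98%. Their median log2 ratio was 0.17, beside −0.06 over all genes tested. Tap1 was at 42.4 CPM in old tumour, 38.7 in old sham, 72.9 in young tumour and 29.1 in young sham cells, a ratio of 2.504 (2.22 to 2.83) in young mice. B2m, the light chain of class I molecules, was at 2536, 2371, 2850 and 1711 CPM with a ratio of 1.67. Irf1, an interferon-regulated factor, stood apart: it was at 51.7, 171, 67.5 and 51.6 CPM, with the old sham library high and ratios of 0.30 for tumour over sham in old mice and 3.32 for old over young sham.

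Ependymal-like cells, the ciliated lining of the ventricles, differed between libraries in Psmb8 and Psmb9 more than microglia-like cells did, in few cells: 121 (old tumour), 54 (old sham), 90 (young tumour) and 61 (young sham), of which 35, 17, 35 and 23 lay near the limit of the assignment. The class was led by genes of cilia such as Dnah12, which was not used to select it, and Tmem212, which was. Psmb8 had 62, 18, 81 and 1 UMIs, or 85.2, 56.4, 124 and 2.01 CPM, and Psmb9 had 58, 15, 133 and 2 UMIs, or 79.7, 47.0, 204 and 4.03 CPM. The young sham library was thus near 0 for both, and the other 3 libraries were not. The young tumour over sham ratios were 61.7 (10.8 to 2465) for Psmb8 and 50.6 (13.7 to 422) for Psmb9, with intervals as wide as such counts imply.

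The other immune subunits varied less in ependymal-like cells. Psmb10 was at 33.0, 28.2, 35.2 and 12.1 CPM, Psme1 at 104, 97.1, 103 and 54.3 CPM, and Psme2 at 106, 90.8, 99.6 and 64.4 CPM, with young tumour over sham ratios of 2.92, 1.89 and 1.55. The immune sum was 408, 320, 565 and 137 CPM, a ratio of tumour over sham of 1.28 (1.02 to 1.62) in old and 4.13 (3.18 to 5.43) in young mice, and of old over young sham of 2.33 (1.70 to 3.22). The constitutive 20S sum was 3051, 2935, 3108 and 2836 CPM. Accordingly the immune share of the catalytic UMIs was 21.5% in old tumour, 16.9% in old sham, 34.4% in young tumour and 2.86% in young sham cells.

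In this class 47 of 50 members passed the floor, among 10549 genes, and the background of calls was higher than in microglia-like cells. Past 1.5-fold in either direction were 9 members for young tumour against young sham (the 5 immune genes, Psmd14 and Psmg3 higher, Psmf1 and Psme3 lower), 19.1% of members beside 32.4% of all genes. For old tumour against old sham 3 were (Psmb8, Psmb9 and Psme4, all higher), beside 34.5% of all genes, and for old tumour against young tumour Psmb9 alone, which was lower, beside 27.7% of all genes. For old sham against young sham 12 were, 25.5% of members beside 39.6% of all genes, with Psmb8, Psmb9, Psmb10 and Psme1 among the 10 that were higher. All 4 shares of members lie below the background, so the counts are no result about the proteasome genes, and the values of the single genes are given as a description.

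Beside these values, 10 interferon-induced genes summed to 2068, 1607, 1426 and 131 CPM in old tumour, old sham, young tumour and young sham ependymal-like cells, and Tap1 was at 26.1, 21.9, 121 and 0 CPM, from 19, 7, 79 and 0 UMIs. The 4 class II genes summed to 16.5, 21.9, 228 and 14.1 CPM. Microglial markers stood at 148, 185, 161 and 165 CPM, and of 10 T cell markers 1 was detected in each library, with 9 at 0. Of 8 border macrophage markers 2, 0, 2 and 0 were detected. With clusters in place of marker gates (241, 131, 176 and 127 cells) the immune sum was 358, 301, 621 and 131 CPM, with a young tumour over sham ratio of 4.75 and an old over young sham ratio of 2.302.

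Endothelial-like cells (945, 639, 940 and 943 cells) carried the highest immune share, apart from microglia, of the classes of the brain's own tissue with at least 20 cells in every library. Border macrophage-like cells were too few under the gate to be ranked. The endothelial share lay further apart between ages than between tumour and sham. The share was 49.4% (48.2 to 50.6) in old tumour, 50.3% (48.7 to 51.9) in old sham, 44.0% (42.5 to 45.5) in young tumour and 44.8% (43.4 to 46.2) in young sham cells. Psmb8 was at 226, 222, 181 and 180 CPM and Psmb9 at 153, 143, 101 and 110 CPM, whereas Psmb10 was at 172, 167, 169 and 180 CPM. Psmb9 was higher in old than in young tumour cells at 1.51 (1.35 to 1.70), a ratio of 1.47 with clusters in place of gates, and 1.30 (1.15 to 1.47) between sham cells. Psmb8 had ratios of 1.25 (1.14 to 1.37) and 1.23 (1.12 to 1.36) for old over young, under 1.5-fold. In cells without a UMI of any other leukocyte marker, the Psmb9 ratios were 1.13 (0.72 to 1.81) between tumour and 1.20 (0.67 to 2.13) between sham cells. Those of Psmb8 were 1.25 (0.85 to 1.85) and 0.998 (0.62 to 1.58) there. The Psmb9 call was thus not kept in these cells, which held 45, 23, 36 and 31 Psmb9 UMIs. The immune sum was nearly level at 926, 958, 825 and 876 CPM, as were the interferon-induced genes at 882, 978, 787 and 983 CPM.

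**Figure D4:**
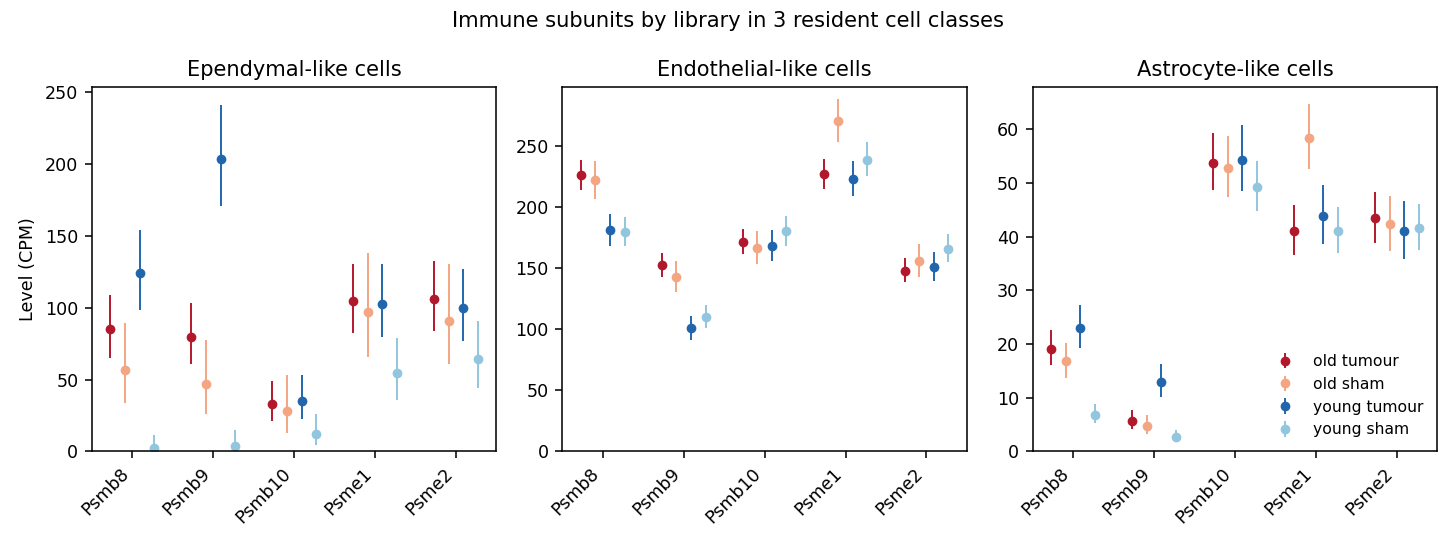
Levels of the 5 immune subunits (CPM of the class) in ependymal-like, endothelial-like and astrocyte-like cells of the 4 libraries, with 95% counting intervals. In ependymal-like cells Psmb8 and Psmb9 are at 2.01 and 4.03 CPM in young sham and at 47.0 CPM or more in the other libraries.

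Astrocyte-like cells (1916, 1788, 1802 and 2411 cells) held little Psmb8 and Psmb9. Psmb8 was at 19.1 CPM in old tumour, 16.8 in old sham, 23.0 in young tumour and 6.85 in young sham cells, and Psmb9 at 5.66, 4.70, 12.97 and 2.70 CPM, the young sham library again being the lowest. Psmb8 was higher in young tumour than in young sham at 3.35 (2.45 to 4.62) and in old sham than in young sham at 2.45 (1.77 to 3.41). Psmb10 was level at 53.8, 52.8, 54.3 and 49.2 CPM, and so the share was 14.3, 13.8, 14.7 and 10.8%. Beside these, interferon-induced genes summed to 179, 130, 99.9 and 64.5 CPM, class II genes to 8.76, 29.5, 218 and 7.42 CPM, microglial markers to 229, 253, 290 and 290 CPM, and T cell markers to 9.44, 11.9, 20.7 and 9.44 CPM with all 10 detected in young tumour. The part of RNA from other cells in these low levels was not tested.

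In oligodendrocyte-like cells (1679, 2383, 1196 and 913 cells) Psmb8 was at 4.60, 4.40, 14.6 and 2.73 CPM and the share at 2.70, 2.96, 4.76 and 2.37%. Class II genes stood at 14.8, 115, 95.9 and 5.15 CPM there, and T cell markers at 1.32, 1.90, 10.51 and 1.97 CPM. The part of these transcripts in the Psmb8 values was not tested. Choroid plexus epithelium-like cells (574, 413, 176 and 402 cells) had Psmb8 at 5.7, 6.1, 15.3 and 2.9 CPM but Psme1 at 194, 236, 177 and 165 CPM, with an immune share of 3.66, 4.47, 7.45 and 2.61%. Of these cells 203, 131, 62 and 157 lay near the limit of the assignment, and their median depths were 10608.5, 7535, 4247.5 and 5852.5 UMIs. Neuron-like cells (114, 98, 63 and 96 cells) had 2, 0, 3 and 0 Psmb8 UMIs and a share of 7.83, 7.63, 8.24 and 5.79%. In neuroblast-like cells the constitutive 20S sum of 4131, 3870, 4654 and 4337 CPM stood beside shares of 5.65, 3.99, 6.45 and 3.00%. In these 4 classes the young tumour library had the highest value of the share and the young sham library the lowest, with intervals that overlap in neuron-like cells and do not overlap between these 2 libraries in the other 3.

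Cells of vessel walls and coverings varied between libraries. Pericyte-like cells (104, 65, 118 and 117 cells) had 69, 34, 125 and 30 immune UMIs, or 326, 330, 633 and 154 CPM, a tumour over sham ratio of 4.12 (2.75 to 6.37) in young and 0.99 in old mice. Class II genes stood at 47.2, 38.8, 1003 and 15.4 CPM in these cells and T cell markers at 4.72, 0, 152 and 20.5 CPM, with 7 of 10 detected in young tumour, and their part in the result was not tested. Fibroblast-like cells (79, 54, 76 and 77 cells) summed to 662, 944, 705 and 543 CPM, with old sham the highest and an old over young sham ratio of 1.74 (1.52 to 1.99). Of these cells 40, 28, 26 and 35 lay near the limit of the assignment. Class II genes stood at 2257, 2256, 542 and 756 CPM, with all 4 higher in old sham than in young sham. Interferon-induced genes stood at 443, 1233, 526 and 225 CPM in them, with the same library highest and lowest, and the part of these transcripts in the result was not tested.

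T cell-like and dendritic cell-like cells had higher immune levels than microglia-like cells. T cell-like cells (146, 95, 259 and 39 cells) had Psmb8 at 1166, 1062, 1236 and 877 CPM, an immune sum of 2658, 2549, 3195 and 2240 CPM, and a share of 80.8, 82.4, 77.8 and 75.4%. Their constitutive 20S sum was 2998, 2650, 4026 and 3158 CPM, highest in young tumour. B cell-like cells summed to 1452, 1487, 2186 and 1464 CPM with shares of 67.2, 61.7, 74.7 and 65.1%, and old tumour stood at 0.66 of young tumour. Neutrophil-like cells (58, 20, 38 and 100 cells) were lower at 452, 291, 931 and 560 CPM, with tumour over sham ratios of 1.55 in old and 1.66 in young mice, the old sham value resting on 19 UMIs. The 50 dendritic cell-like cells of young tumour had an immune sum of 7778 CPM, with Psmb8 at 2040, Psme1 at 2375 and Psme2 at 2064 CPM and a share of 83.4% (81.2 to 85.5). The class was nearly absent elsewhere, with 1, 0 and 2 cells in old tumour, old sham and young sham.

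The Hmga2-expressing cycling cells of young tumour had 957 CPM of Psmb8, 330 of Psmb9 and 362 of Psmb10, an immune sum of 2122 CPM beside a constitutive 20S sum of 5558 CPM, and an immune share of 65.2% (64.6 to 65.8). Border macrophage-like cells were too few under the gate (27, 18, 36 and 24 cells), and as clusters had Psmb8 at 467, 346, 608 and 345 CPM and immune sums of 1254, 1030, 1661 and 1039 CPM. The cells gated by monocyte markers (15, 23, 60 and 26 cells) were led by Ctsg, Prtn3, Elane and Mpo, genes of granule-forming progenitors, and are not compared. The cluster named by monocyte markers (49, 69, 647 and 86 cells) had immune sums of 1777, 1377, 3688 and 1864 CPM. Its Psmb8 was at 661, 463, 1346 and 692 CPM, and its microglial markers summed to 1684, 1487, 8356 and 1743 CPM. The part of such cells in the microglia-like values was not tested.

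**Figure D5:**
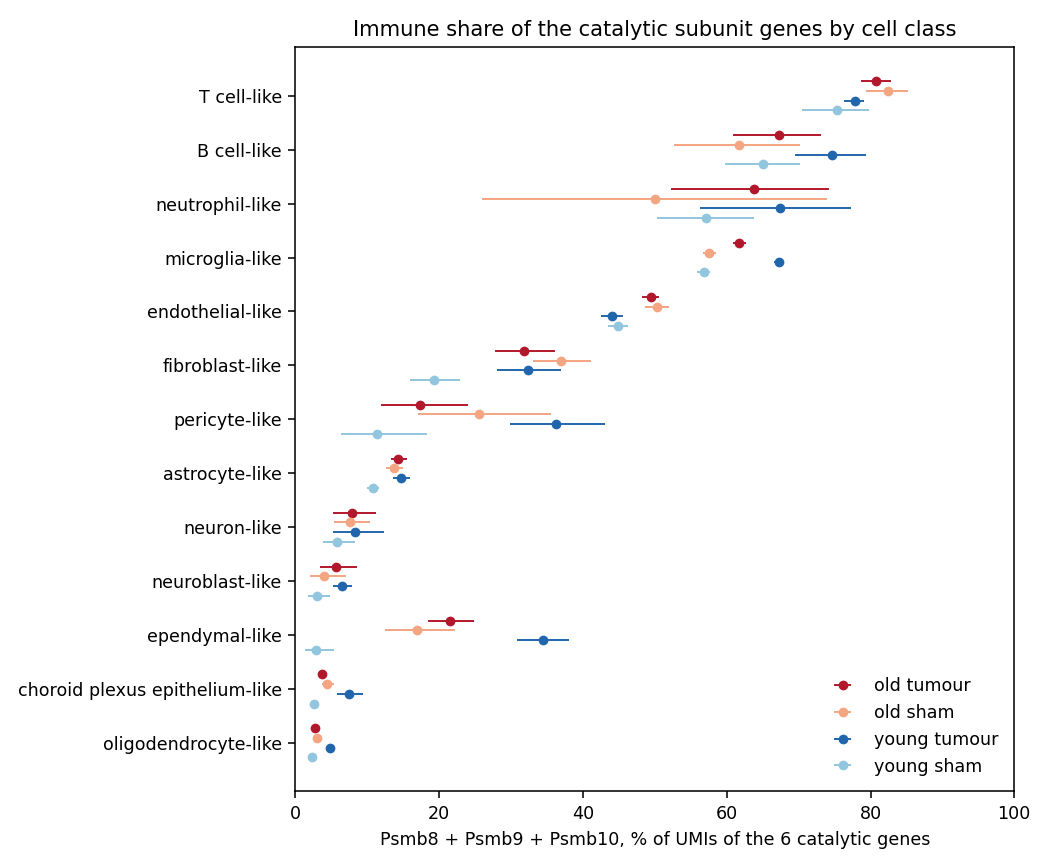
Immune share of catalytic subunit UMIs (Psmb8, Psmb9 and Psmb10 among these and Psmb5, Psmb6 and Psmb7, percent) in 13 cell classes of the 4 libraries, with 95% intervals. T cell-like cells lie between 75.4 and 82.4%, microglia-like cells between 56.8 and 67.3% and oligodendrocyte-like cells between 2.37 and 4.76%.

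Over the 13 classes with at least 20 cells in every library, the immune sum was at least 1.5-fold higher with tumour in 5 classes in young mice (microglia-, neutrophil-, pericyte-, ependymal- and neuron-like) and in 1 class in old mice (neutrophil-like), and lower in none at either age. The count in young mice was 9 of 17 classes with clusters and 3 of 9 in cells without other leukocyte UMIs, and that in old mice was 0 under both. Between tumour libraries it was lower in old mice in 3 classes (neutrophil-, B cell- and pericyte-like) and higher in none. Between sham libraries it was higher in old mice in 3 classes (pericyte-, fibroblast- and ependymal-like) and lower in the neutrophil-like class. The comparisons at each age share libraries with those between ages, so these counts are not independent.

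Across 68 combinations of class and library (21 classes, 4 libraries), the genes whose log2(CPM + 1) was most like that of the 5 immune subunits summed, among 16781 genes, were H2-T23 (Pearson's r 0.894), B2m (0.884), Fau (0.865), Tap1 (0.861), H2-K1 (0.856), Rps27 (0.851), Sp110 (0.850), AW112010 (0.843), H2-D1 (0.833) and Cmtm7 (0.830). The constitutive partners lay at −0.21 (Psmb5), −0.20 (Psmb6) and −0.26 (Psmb7). H2-K1, H2-D1 and H2-T23 encode class I heavy chains, and Fau and Rps27 ribosomal proteins. The points share libraries, depth and cell types, so these values are a description.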

How the data were processed

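Single cells of the hemisphere opposite the injection were profiled with the 10x Genomics 3' v3 protocol, per the labels. The deposited matrices hold raw counts (UMIs) with no scaling by the authors. The submitters' processing notes name Cell Ranger 3.0.2, Seurat 2.3.4 and mm10, whereas the deposited file headers name Cell Ranger 6.1.0; this was not resolved. Barcodes under 500 UMIs, under 200 genes or over 20% mitochondrial UMIs were dropped, and the cells with the highest Scrublet scores (scanpy 1.11.5) were removed at 0.8% per 1000 barcodes. A cell joined a class when at least 3 of its markers were detected and their share was at least 2 times that of any other of 22 types; rebuilt classes may differ from the study's. Counts were summed per class and library (numpy 2.4.6, pandas 2.3.3). Levels are CPM of the class total, ratios carry exact conditional Poisson 95% intervals and shares Clopper-Pearson intervals (scipy 1.17.1), and 0 was set to 3 counts for bounds. These intervals cover counting error only. Genes needed 10 CPM in 1 library. Named members were the immune, constitutive catalytic and activator genes and the 3 other members with the highest and the lowest ratio in each comparison, plus any member called or described by role; Ms4a7, Mrc1, Psmd2, Psmd9, Psmd14 and Irf1 were named after their values were seen. The members, marker lists and gene lists were chosen with earlier results of these data known. The ratio calculation was tested on simulated data. Alternatives were no doublet removal, a stricter cell filter (1000 UMIs, 10% mitochondrial), Leiden clusters (32 clusters, resolution 1, igraph 0.11.9), a gate without other leukocyte UMIs, thinning, per-cell means, 2 other scalings and other floors; 2 were added after seeing the data (cells without interferon-induced or without class II UMIs). Motifs were read in RefSeq windows (GRCm38.p6), and positions from GENCODE M21. Some genes of the lists are not reported here.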

Additional observations from a re-analysis of the deposited data

Results flagged for a closer look

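In 2 classes of the brain's coverings and ventricles the ratio of tumour over sham ran in opposite directions at the 2 ages, with 1 library per group, and the difference between ages was not tested. In fibroblast-like cells the log2 ratio of Psmb8 was −0.58 in old and 1.02 in young mice, and that of the 5 immune subunits summed was −0.51 in old and 0.38 in young mice. In choroid plexus epithelium-like cells the immune sum had a log2 ratio of −0.27 in old and 0.27 in young mice, the constitutive 20S sum 0.14 and −0.14, and Psmb5 0.25 and −0.21. Many cells of both classes lay near the limit of the assignment, as given above, and the part of this was not tested.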

How the results depend on the processing

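The values below are log2 ratios in microglia-like cells unless named otherwise. For young tumour over young sham, the immune sum (0.84 as reported) was 0.48 with Leiden clusters, 0.26 in cells without a UMI of other leukocyte markers, 0.50 thinned to 1000 UMIs, 0.51 as a mean of each cell's CPM, 0.27 in cells without interferon-induced UMIs and 0.16 in cells without class II UMIs, and 0.88 and 0.89 with the class total free of mitochondrial and ribosomal genes and with ratios centred on the median gene. Under the same 8 settings in that order the constitutive 20S sum was 0.084, 0.035, 0.097, 0.11, 0.070, 0.037, 0.25 and 0.27. For old over young tumour, the immune sum was −0.19 with clusters, −0.13 without other leukocyte UMIs, −0.25 thinned, −0.23 as a mean per cell, −0.072 in interferon-negative and 0.042 in class II-negative cells, and the constitutive sum −0.11, −0.050, −0.12, −0.13, −0.12 and −0.074. For old over young sham, the immune sum was −0.080 without other leukocyte UMIs, 0.060 thinned, 0.16 without mitochondrial and ribosomal genes, 0.17 median-centred and 0.041 in interferon-negative cells; the constitutive sum was −0.14, −0.12 and −0.11 in cells without other leukocyte UMIs and under the 2 scalings. In old mice tumour over sham was 0.094 for the immune sum in class II-negative cells and 0.11 for the median-centred constitutive sum. The immune share in young tumour was 62.7% with clusters, 60.8% without other leukocyte UMIs, 65.3% thinned, 63.6% as a mean per cell, 59.8% in interferon-negative and 58.1% in class II-negative cells; in old tumour it was 59.3% without other leukocyte UMIs and 63.3% thinned, and in old sham 55.8% without other leukocyte UMIs. Of the counts of cell classes, those higher with tumour in old mice were 0 without doublet removal, with clusters, without other leukocyte UMIs and with 50 cells required, and 2 under the stricter filter, and 2 were lower when thinned. In young mice 9 were higher with clusters and 3 without other leukocyte UMIs. Of the classes, 13 were compared as reported, 17 with clusters, 9 without other leukocyte UMIs and 10 with 50 cells required, so these counts do not move by the calls alone. Old over young tumour gave 5 lower classes with clusters, and 1 without other leukocyte UMIs, thinned and with 50 cells required; old over young sham gave 5 higher when thinned, and 0 lower without other leukocyte UMIs and with 50 cells required. With a floor of 50 CPM no member was called higher with tumour in old mice or lower in old sham than in young sham, and with 1 UMI per library as the floor 1 more member was lower and 1 higher in those comparisons. The causes were not tested. In all 118 of the main values were little moved and 66 moved, and none that was called changed sign. No paired analysis was possible because each group had 1 library, and for the same reason no replicate could be left out. Neutrophil-like cells, with 19 immune UMIs in old sham, and ependymal-, neuron- and pericyte-like cells rest on few UMIs, which limits their ratios.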
